A study of Mus musculus with 6 samples.

Results

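The following 10 testis genes of the ADAM family (a disintegrin and metalloprotease) are described here in purified male germ cells of the mouse. They are Adam2, Adam3, Adam5, Adam18, Adam24, Adam25, Adam26a, Adam29, Adam32 and Adam39. They were taken by symbol from the array annotation, with 1 transcript cluster per gene, and all 10 were among the 17925 genes tested of 19938 genes with a cluster of their own. Each of the 10 had a single such cluster. RNA came from round spermatids, the haploid products of meiosis, and from pachytene spermatocytes, still within the first meiotic prophase. The 6 Affymetrix Gene 1.0 ST arrays were 1 of Rnf8 knockout (KO) and 1 of wild-type (WT) round spermatids, and 2 of KO and 2 of WT pachytene spermatocytes. Both round spermatid arrays are numbered 2 in their titles, and no round spermatid array numbered 1 is among the 6. All mice had the C57BL/6 strain background. The sources used here do not say how the Rnf8 allele was made or how old the males were. Cells of 3 to 4 males per genotype were sedimented through BSA at unit gravity, with a stated purity above 95%, and nothing says that the arrays of a group came from separate preparations. The p-values therefore measure only the spread between these arrays, which may be technical.

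ADAM proteins are membrane-anchored proteins built from a metalloprotease domain, a disintegrin domain and a cysteine-rich stalk. Many are made in male germ cells and end up on the sperm surface, where several exist as complexes rather than as proteases. In the mouse, sperm that lack ADAM2 or ADAM3 bind the zona pellucida poorly and rarely pass from the uterus into the oviduct. The names testase 1, 2, 3 and 9 have been given to the testis proteins ADAM24, ADAM25, ADAM26 and ADAM39.

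Of the 10 genes, 9 lie on mouse chromosome 8, and only Adam2 lies elsewhere, on chromosome 14. In the RefSeq gene order, Adam18, Adam3, Adam5 and Adam32 are direct neighbours, followed by the widely expressed Adam9. A separate run holds Adam24, Adam25, Adam20 and Adam39 side by side. A further run holds Adam26b, Adam26a, Adam34l and Adam34, and Adam29 stands apart from all of these. Such tandem copies are alike in sequence, and how far the array probes tell them apart was not tested.

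Promoter sequences from RefSeq (GRCm38.p6) were held for 2 of the 10 genes, Adam25 and Adam29, and for 9 of 11 other testis ADAM genes. The 250 bases before the start of Adam25, of its tandem neighbour Adam20 and of Adam29 are shown because all 3 genes were higher in round spermatids. Each runs 5′ to 3′ on the strand of its gene, and capitals mark matches on either strand to the searched motifs.
Adam25, chr8:40751958-40752207, plus strand: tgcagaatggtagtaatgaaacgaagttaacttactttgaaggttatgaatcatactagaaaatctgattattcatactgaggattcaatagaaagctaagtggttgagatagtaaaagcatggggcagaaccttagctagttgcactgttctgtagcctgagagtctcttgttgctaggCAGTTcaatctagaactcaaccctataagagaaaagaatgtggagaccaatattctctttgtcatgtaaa
Adam20, chr8:40793023-40793272, plus strand: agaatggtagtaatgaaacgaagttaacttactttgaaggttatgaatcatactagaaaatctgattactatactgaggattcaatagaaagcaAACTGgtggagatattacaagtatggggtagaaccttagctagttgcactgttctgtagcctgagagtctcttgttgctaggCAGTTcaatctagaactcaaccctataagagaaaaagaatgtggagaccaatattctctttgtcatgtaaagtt
Adam29, chr8:55906965-55907214, minus strand: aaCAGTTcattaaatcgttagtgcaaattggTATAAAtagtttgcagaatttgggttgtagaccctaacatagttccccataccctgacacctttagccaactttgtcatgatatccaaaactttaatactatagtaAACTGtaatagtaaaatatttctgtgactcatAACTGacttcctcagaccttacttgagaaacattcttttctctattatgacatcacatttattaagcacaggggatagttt
The windows of Adam25 and Adam20, each with the 50 bases after the start included, were 93.4% identical over 304 aligned columns, the highest value of 55 pairs compared. Their longest identical run was 88 bases. Searched on both strands were the cyclic AMP response element TGACGTCA and its core TGACG, the TATA box TATAAA, the RFX core GTTGCC and the MYB core AACTG. The core lies within the full element, so a match to the longer motif also counts for the shorter. The MYB core AACTG occurred on the minus strand 66 to 70 bases before the start of Adam25. Adam29 held 3 matches to AACTG and 1 to TATAAA, which lay 214 to 219 bases before its start. Of 32851 RefSeq promoter windows, 44.8% held AACTG and 13.6% held TATAAA, against 7 and 4 of the 11 testis ADAM windows. The windows of Adam6a and Adam6b share an identical run of 199 bases, and both hold AACTG and TATAAA. Those of Adam25 and Adam20 both hold AACTG. The counts over the 11 windows thus include copied sequence and are not independent. TGACGTCA (1.79% of windows) and TGACG (20.8%) occurred in 0 of the 11 testis ADAM windows, and GTTGCC (12.5%) in those of Adam26b and Adam34l.

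Median intensity per array lay between 197.3 and 217.7. Precision is limited by the number of arrays. The cluster of the targeted gene also lists Gm28043. Its log2 intensity was 7.50 in KO and 7.78 in WT round spermatids, and 7.86 and 8.05 in KO against 8.51 and 8.86 in WT pachytene spermatocytes, so the KO and WT pachytene values did not overlap. Which part of Rnf8 is deleted is not known here, so this level does not test the labels. In limma, round spermatids were higher in 10 of 12 spermatid markers and lower in 8 of 11 spermatocyte markers. Leydig markers (6 of 6) and Sertoli markers (7 of 11) passed as lower there as well. The summed intensity of the Leydig markers was 1044 to 1277 on the round spermatid and 4689 to 6905 on the pachytene arrays, and that of the Sertoli markers 4406 to 5414 and 7941 to 9445. The corresponding sums were 68790 to 71620 and 41210 to 51440 for spermatid markers, and 19080 to 20020 and 34310 to 41650 for spermatocyte markers. Of 7 peritubular markers 2 passed as higher in round spermatids (sums 3287 to 4133 and 1917 to 2290), of 5 macrophage markers 2 (759.7 to 820.8 and 589.3 to 616.8) and of 8 spermatogonial markers 1 (2558 to 3020 and 2458 to 2805). By comparison, 17.8% of all genes tested passed as higher and 17.1% as lower. Among the peritubular markers Dcn differed by 2.86 and Pdgfra by 0.53 on the log2 scale, and the others lay between -0.14 and 0.10. With an array left out in turn, the counts ran between 7 and 12 for spermatid, 6 and 9 for spermatocyte and 4 and 9 for Sertoli markers, and that for Leydig markers was 6 throughout. Without the WT round spermatid array, 4 Sertoli, 1 peritubular, 0 macrophage and 0 spermatogonial markers passed. Without the KO round spermatid array 1 macrophage and 1 peritubular marker passed, and without either WT pachytene array 1 peritubular marker. The spermatogonial marker passed as higher with KO pachytene array 1 left out, and with no other array left out. No marker was at 0 on any array, and no measure of background was used. The part of other cells in the results was not tested.

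The first comparison asked how the ADAM transcripts differ between the cells after and before the meiotic divisions. Of the 10 genes, 5 were higher in round spermatids, and 0 were lower, in the additive limma fit of genotype and cell type (2 round spermatid against 4 pachytene arrays). Those 5 were the testase genes Adam24, Adam25, Adam26a and Adam39, together with Adam29, and they rose 3.10-fold to 5.16-fold. Of all genes tested, 34.9% passed, 17.8% as higher and 17.1% as lower. The other 5 genes, Adam2, Adam3, Adam5, Adam18 and Adam32, had differences between -0.26 and 0.03 on the log2 scale. The median log2 difference was 0.83 over the 10 genes and -0.06 over all genes tested. In such bulk samples, fewer cells of a type and less RNA per cell cannot be told apart.

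**Figure D1:**
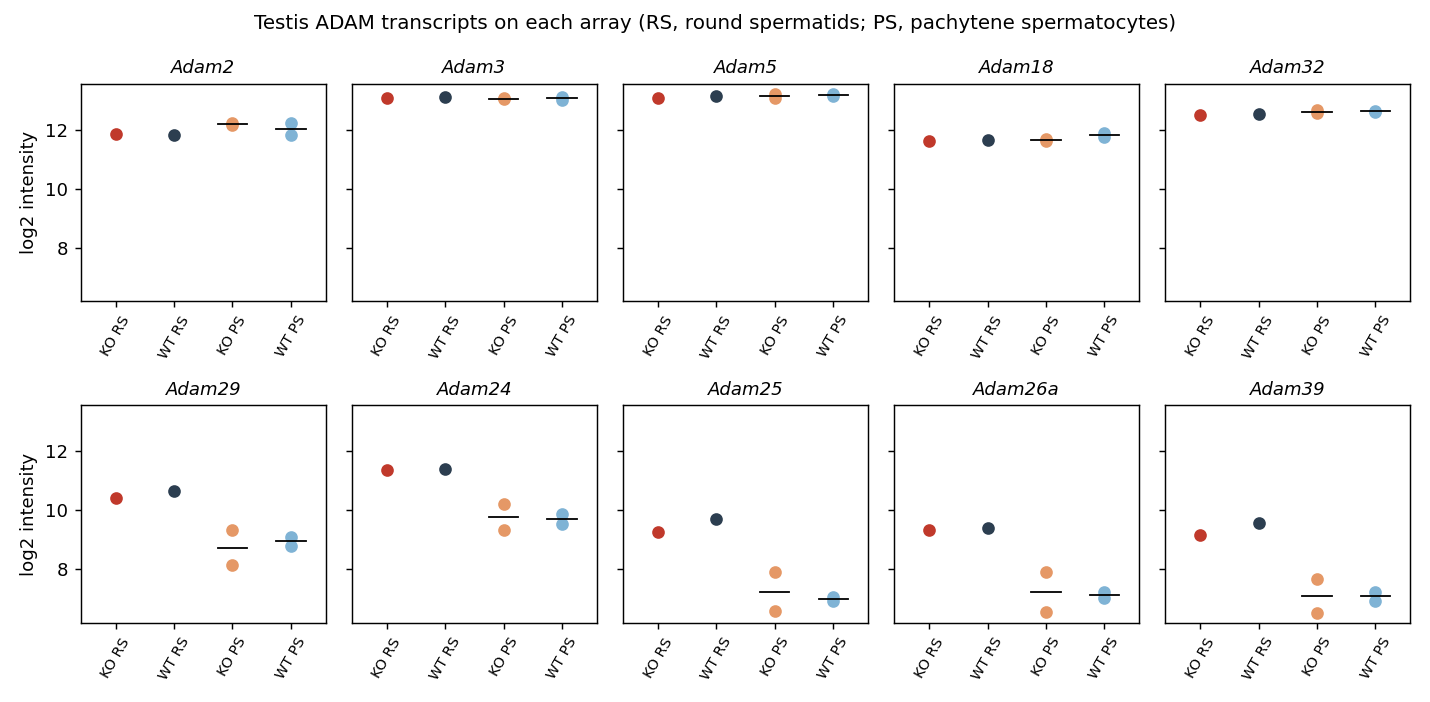
Log2 intensity (vertical axis) of the 10 testis ADAM genes on each of the 6 arrays. RS is round spermatids and PS pachytene spermatocytes, each point is 1 array, and the short line is the mean of 2 arrays. The 5 genes of the upper row stay at similar values in all 4 groups, and those of the lower row lie higher on both round spermatid arrays than on all pachytene arrays.

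Adam2 encodes fertilin beta, the partner of ADAM1 in the fertilin complex of sperm. Its log2 intensity was 11.86 in KO and 11.84 in WT round spermatids, against 12.16 and 12.24 in KO and 12.22 and 11.81 in WT pachytene spermatocytes. WT pachytene array 2 lay below both round spermatid arrays and the other 3 pachytene arrays above them, so the cell types overlap. The difference was -0.26 (SE 0.14, 95% confidence interval -0.58 to 0.06, limma adjusted p = 0.201).

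Mouse fertilin alpha has 2 gene copies, of which 1 passed. Adam1a had log2 intensities of 11.61 in KO and 11.83 in WT round spermatids and 10.23, 9.80, 9.76 and 9.68 on the KO and WT pachytene arrays. It rose by 1.85 (SE 0.17, 95% confidence interval 1.46 to 2.24, limma adjusted p = 2.23e-04). Adam1b lay at 10.70 and 10.62 in KO and WT round spermatids and between 10.14 and 10.78 on the pachytene arrays. Its difference was 0.14 (95% confidence interval -0.25 to 0.52, limma adjusted p = 0.598). The difference between the copies was not tested.

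Adam3 encodes cyritestin, the sperm surface protein whose presence on mature sperm depends on many other testis proteins. The array of KO round spermatids gave 13.07 and that of WT round spermatids 13.11, against 13.06 and 13.03 in KO and 13.12 and 13.02 in WT pachytene spermatocytes. Both round spermatid values fell within the range of the pachytene arrays. The difference was 0.03 (95% confidence interval -0.20 to 0.27). These values lie close to the highest on the arrays, which were 13.65 to 13.77. Whether a ceiling limited a difference was not tested.

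Adam5, which lies next to Adam3, had a like profile. It lay at 13.06 in KO and 13.15 in WT round spermatids, against 13.20 and 13.09 in KO and 13.23 and 13.15 in WT pachytene spermatocytes. The cell types overlapped, with a difference of -0.06 (95% confidence interval -0.30 to 0.18). Like those of Adam3, these values lie close to the highest on the arrays, and whether a ceiling limited a difference was not tested.

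Adam18 was at 11.61 in KO and 11.64 in WT round spermatids. The KO pachytene arrays gave 11.69 and 11.63 and the WT pachytene arrays 11.87 and 11.76. Only KO pachytene array 2 fell below a round spermatid array, and the difference was -0.11 (95% confidence interval -0.36 to 0.13).

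Adam32 gave 12.50 in KO and 12.54 in WT round spermatids, against 12.66 and 12.57 in KO and 12.64 and 12.60 in WT pachytene spermatocytes. Here both round spermatid arrays lay below all 4 pachytene arrays, as they did for 26.4% of all genes tested. At -0.10 (95% confidence interval -0.33 to 0.14, limma adjusted p = 0.539) the difference did not pass. For these 5 genes the confidence intervals reach no further than -0.58 and 0.27, so changes of 2-fold in the measured intensity lie outside them. Adam3 and Adam5 lie less than 2-fold below the highest log2 value on any array, 13.77. For these genes a 2-fold rise could not have been seen, so the intervals do not bear on it.

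Adam29, a testis ADAM gene with a promoter shown above, behaved otherwise. Its log2 intensity was 10.41 in KO and 10.66 in WT round spermatids. It was 9.34 and 8.14 in KO and 8.81 and 9.10 in WT pachytene spermatocytes. The cell types did not overlap, which was so in this direction for 24.1% of all genes tested, and Adam29 rose by 1.69 (SE 0.29, limma adjusted p = 0.00268), or 3.23-fold.

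Adam24, testase 1, has been linked in the mouse to the block against entry of further sperm at the egg membrane. It lay at 11.36 in KO and 11.41 in WT round spermatids, against 10.22 and 9.36 in KO and 9.89 and 9.54 in WT pachytene spermatocytes. Both round spermatid arrays lay above every pachytene array, and the gene rose by 1.63 (SE 0.23, limma adjusted p = 0.0011), or 3.10-fold.

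Adam25, testase 2, had the largest change of the 10 genes. Its values were 9.27 in KO and 9.71 in WT round spermatids, against 7.91 and 6.58 in KO and 6.95 and 7.05 in WT pachytene spermatocytes. No pachytene array came within 1 log2 unit of a round spermatid array. The rise was 2.37 (SE 0.34, limma adjusted p = 0.00113), or 5.16-fold. Adam20, whose promoter window resembles that of Adam25, lay at 10.79 in KO and 10.85 in WT round spermatids, 9.59 and 8.85 in KO and 9.12 and 9.04 in WT pachytene spermatocytes, a rise of 1.67.

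Adam39, testase 9, follows Adam20 on the chromosome. It gave 9.17 in KO and 9.58 in WT round spermatids, against 7.67 and 6.53 in KO and 7.23 and 6.95 in WT pachytene spermatocytes. The groups of cells were apart on every array, with a rise of 2.28 (SE 0.29, limma adjusted p = 6.87e-04), or 4.85-fold.

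Adam26a, testase 3, belongs to the other run of tandem genes. Its log2 intensity was 9.33 in KO and 9.42 in WT round spermatids, 7.93 and 6.56 in KO and 7.24 and 7.03 in WT pachytene spermatocytes. It rose by 2.19 (SE 0.32, limma adjusted p = 0.00135), or 4.55-fold. A second cluster lists Adam26a together with Gm5347, Adam34l, Adam26b and Adam34, and lay at 10.50 in KO and 10.65 in WT round spermatids and 9.10, 8.06, 8.61 and 8.32 on the KO and WT pachytene arrays. Its difference of 2.05 was not tested, because the cluster names several genes.

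By position, all 4 genes of the run Adam18, Adam3, Adam5 and Adam32 were without a called change, and Adam24, Adam25 and Adam39 of the run around Adam25 all rose. Among the 10 genes the closest pair of profiles was Adam5 and Adam32, with a root-mean-square distance of 0.031 log2 units between mean-centred values over the 6 arrays. The values were not scaled to equal variation, so genes that vary little over the arrays have small distances. All profiles share the same 6 arrays and their scaling, so such distances are descriptions.

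For comparison, 11 other testis ADAM genes were listed. Of these, 9 rose and 0 fell in round spermatids, against 17.8% higher and 17.1% lower among all genes tested. Their median log2 difference was 1.79. Fewer of the 11 passed without the WT round spermatid array. The largest rises were Adam4 at 2.05, Adam34 at 2.04, Adam6a at 1.88 and Adam21 at 1.85, with Adam1a likewise at 1.85. Besides Adam1b, only Adam30 did not pass, at 0.06 (95% confidence interval -0.23 to 0.36).

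**Figure D2:**
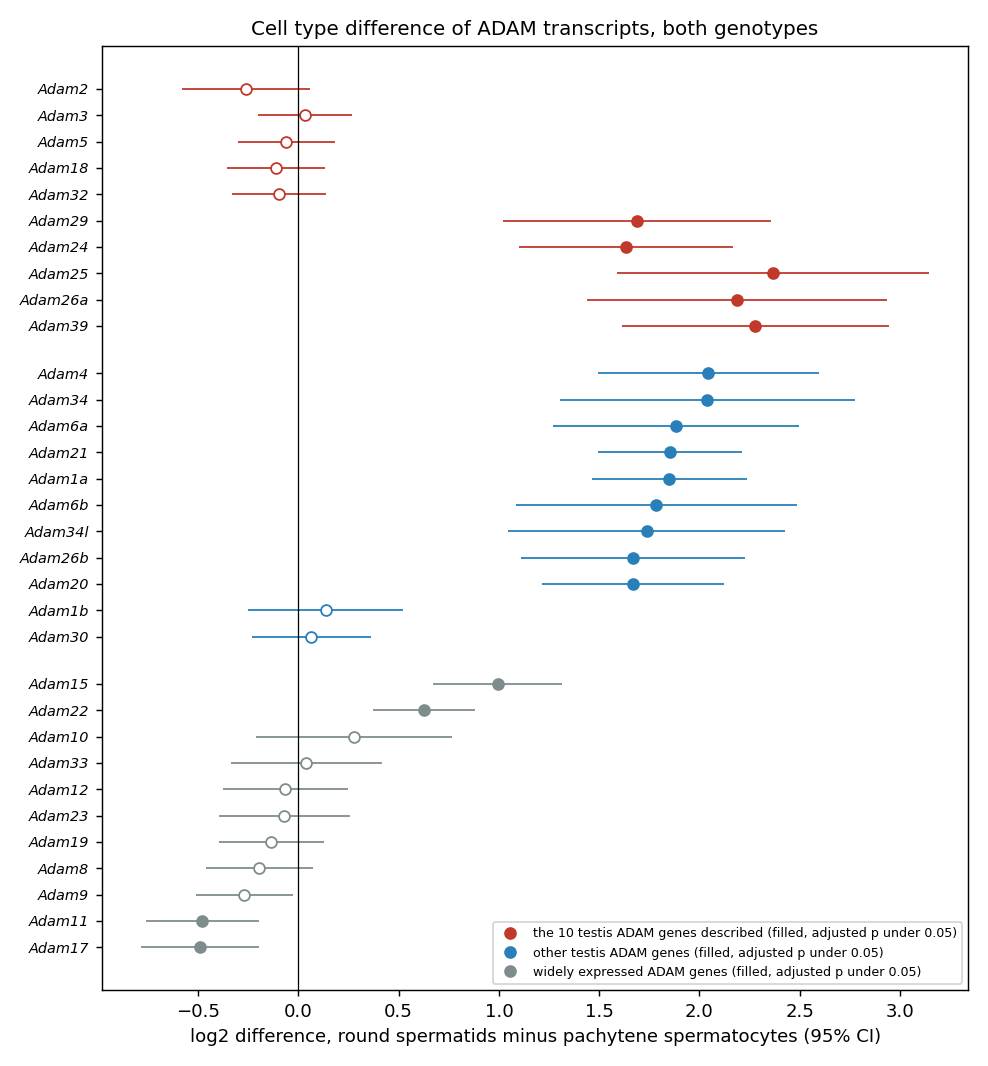
Log2 difference between round spermatids and pachytene spermatocytes (horizontal axis) with its 95% confidence interval, from the additive limma fit over 6 arrays. Filled points have an adjusted p under 0.05. Of the 10 genes described, 5 lie above 1.6 and 5 near 0, and 9 of 11 other testis ADAM genes lie at 1.67 or above. The 11 widely expressed ADAM genes, in grey, lie between -0.49 and 0.99.

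The fertilin and ADAM3 proteins need chaperones and surface partners to mature. Of 13 such genes tested (14 were listed), 6 rose and 2 fell in round spermatids, with a median log2 difference of 0.24. By comparison, 17.8% of all genes tested passed as higher and 17.1% as lower, so the share that fell is near the background. Fewer passed as lower without the WT round spermatid array. The disulfide isomerase gene Pdilt rose by 1.47 and the chaperone gene Calr3, needed for ADAM3 in the mouse, by 1.44. The serine protease-like gene Prss37 rose by 1.06, and Prss55 by 1.00. Tex101, a surface protein gene of germ cells, fell by 0.86, and the tyrosylprotein sulfotransferase gene Tpst2 fell by 0.67. Calmegin (Clgn), the chaperone on which fertilin assembly depends in the mouse, was at -0.19 (95% confidence interval -0.43 to 0.04), like Adam2 and Adam3 without a called change. The highest limma adjusted p among the 8 that passed was 0.00592. Without the WT round spermatid array 3 of the 13 passed as higher, and without the KO array 4.

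Within each genotype the same 5 of the 10 genes passed as higher and 0 as lower, in the limma fit of 4 group means. The lone round spermatid array of each genotype is assumed there to vary like the pachytene pairs. In KO the 5 rises ran between 1.57 for Adam24 and 2.08 for Adam26a, with limma adjusted p up to 0.0415, where 15.5% of all genes passed, 8.36% as higher and 7.18% as lower. In WT they ran between 1.69 for Adam24 and 2.71 for Adam25, with limma adjusted p up to 0.0314, where 20% of all genes passed, 11.5% as higher and 8.45% as lower. With each array centred on its median, 1 of the 10 genes, Adam39, passed in KO, while the differences of the other 4 were 1.58 (Adam24), 1.67 (Adam29), 2.02 (Adam25) and 2.08 (Adam26a), at limma adjusted p of 0.0591 to 0.0838. In WT, Adam29 did not pass with median centring (adjusted p = 0.0584) or without WT pachytene array 1 (adjusted p = 0.0800), and Adam24 did not pass without WT pachytene array 2 (adjusted p = 0.0535). With a WT pachytene array left out, the spread comes from the KO pachytene pair alone. Both comparisons share the fit's estimate of spread, and the test of their difference is the interaction given below.

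The second question was what the loss of Rnf8 does to these transcripts. In pachytene spermatocytes 0 of the 10 genes passed for KO against WT in limma, where 0% of all genes passed and 430 had an unadjusted p under 0.05. None of the 10 was among those 430, and the smallest unadjusted p among them was 0.325. Log2 differences lay between -0.21 for Adam29 and 0.25 for Adam25, with a median of 0.00 against 0.03 over all genes tested. Adam18 was the single gene whose KO arrays both lay below both WT arrays, at -0.16 (95% confidence interval -0.50 to 0.19), as did 10.2% of all genes tested. For 0 of the 10 did both KO arrays lie above both WT arrays, against 14.9% of all genes.

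The width of the intervals differed among the 10 genes. For Adam3 the 95% confidence interval of KO minus WT was -0.36 to 0.33, and for Adam32 -0.35 to 0.34. For the genes that rose after meiosis it was wider, -1.04 to 0.62 for Adam29, -0.65 to 1.14 for Adam25, -0.81 to 1.03 for Adam26a, -0.78 to 0.81 for Adam39 and -0.60 to 0.74 for Adam24. Differences of 1.5-fold in either direction therefore could not be told from none for these 5 genes.

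The KO pachytene pair was far apart for these 5 genes. KO array 1 exceeded KO array 2 by 1.36 for Adam26a, 1.33 for Adam25, 1.19 for Adam29, 1.14 for Adam39 and 0.87 for Adam24. The WT pair differed by at most 0.35 in these genes (Adam24). Of the 10 genes, 4 (40%) were 2-fold or more apart in the KO pair, against 1.02% of all genes tested. Among the other testis ADAM genes 36.4% were as far apart. Of these 11 genes 10 were higher on KO array 1, against 7495 of the 17925 genes tested. In the other 5 of the 10 genes the KO pair differed by 0.12 or less.

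Markers moved with these arrays. All 12 round spermatid markers were higher on KO array 1 than on KO array 2 (median 0.39), as were all 11 spermatocyte markers (median 0.39). Of all 17925 genes tested, 7495 were higher on KO array 1, and the median was -0.07. The summed intensity of the spermatid markers was 51440 on KO array 1 and 41210 on KO array 2, against 41650 and 44010 on the WT arrays. For the Leydig markers the sums were 4689 on KO array 1 and 6706 on KO array 2, against 5944 and 6905 in WT. The part of these differences in the ADAM values was not tested. Without KO pachytene array 1, KO minus WT was -0.42 for Adam25, -0.57 for Adam26a, -0.56 for Adam39, -0.36 for Adam24 and -0.81 for Adam29 (limma adjusted p of 0.202 for the first 3 and for Adam29, 0.303 for Adam24). Those p-values assume that the lone KO array left varies like the WT pair. Without KO pachytene array 2 it was 0.91, 0.79, 0.58, 0.51 and 0.38 for the same genes in that order. Their sign thus changed with the array left out.

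**Figure D3:**
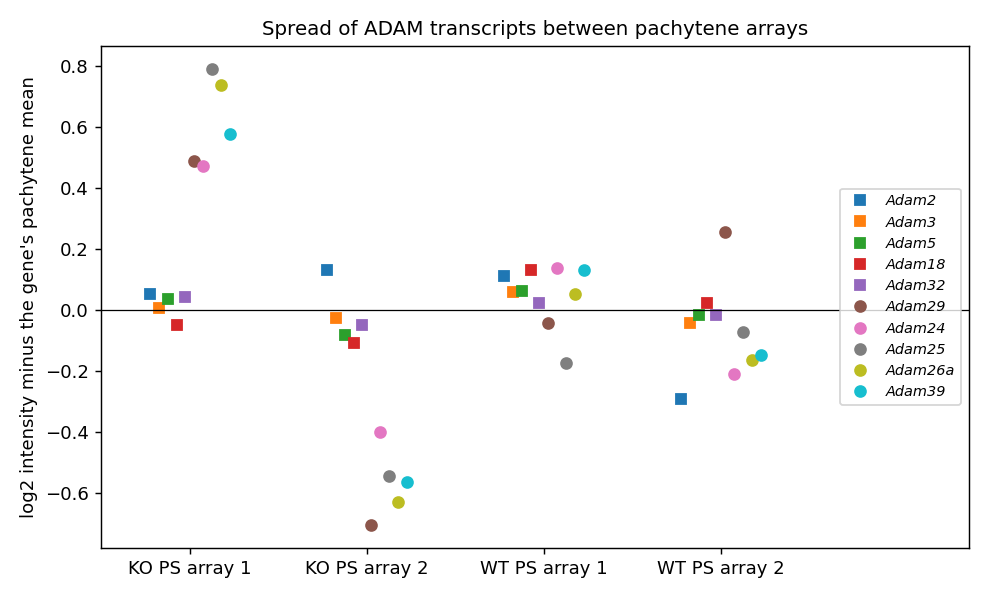
Log2 intensity on each pachytene array minus the mean of the gene's 4 pachytene arrays (vertical axis) for the 10 ADAM genes. Circles are Adam24, Adam25, Adam26a, Adam29 and Adam39 and squares the other 5 genes, each point 1 array. On KO array 1 all 5 circles lie above 0 and on KO array 2 all 5 lie below it, and on both of these arrays every square lies nearer to 0 than every circle.

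In round spermatids there was 1 array per genotype, so the difference has no replicate check. None of the 10 genes differed at least 2-fold, against 0.385% of all genes tested, 0.0335% higher and 0.351% lower in KO. On the log2 scale KO minus WT was -0.44 for Adam25, -0.41 for Adam39 and -0.25 for Adam29. Adam26a was at -0.09, Adam24 at -0.05 and Adam5 at -0.09, and Adam3, Adam18 and Adam32 were each at -0.03. Adam2 was at 0.02. Of the 10, 9 lay below 0, against 40.9% of all genes tested, and the medians were -0.07 and 0.05. The count depended on the scaling. After a second quantile normalization 7 of the 10 lay below 0, against 38.6% of all genes, and Adam3 was at 0.02. After median centring all 10 did, against 54.7% of all genes, with medians of -0.14 and -0.03. The other testis ADAM genes lay below 0 in 9 of 11 cases (median -0.30).

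Markers of other cells differed between the same 2 arrays. KO was higher in 11 of 11 Sertoli markers (median 0.26, summed intensity 5414 in KO and 4406 in WT), 7 of 8 spermatogonial markers (median 0.30) and 6 of 7 peritubular markers (median 0.28). It was lower in 9 of 12 spermatid markers (median -0.04), against 40.9% of all genes tested. Leydig markers were higher in KO in 4 of 6 cases (median 0.11) and macrophage markers in 2 of 5 (median -0.001). The part of these markers' cells in the ADAM differences was not tested. For Adam25 and Adam39 the differences are smaller than the gaps of 1.33 and 1.14 between the KO pachytene replicates, but larger than the gaps of 0.10 and 0.28 between the WT pachytene replicates.

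**Figure D4:**
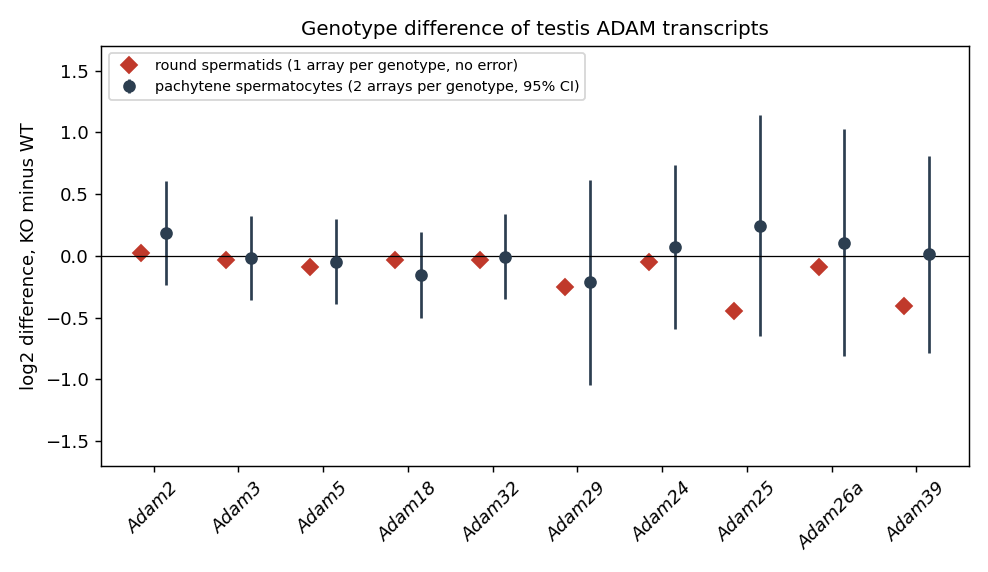
Log2 difference of KO minus WT (vertical axis) for the 10 ADAM genes. Diamonds are round spermatids with 1 array per genotype and no error, and circles are pachytene spermatocytes with 2 arrays per genotype and the 95% confidence interval of the limma fit. All 10 intervals include 0, and the round spermatid differences lie between -0.44 and 0.02.

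Over both cell types, 0 of the 10 genes passed for KO against WT in the additive limma fit, where 0% of all genes passed. That fit had 979 genes at an unadjusted p under 0.05, 0 of them among the 10, whose smallest unadjusted p was 0.285. For the interaction term between genotype and cell type, 0 of the 10 and 0% of all genes passed (130 at an unadjusted p under 0.05 in limma, 0 of them among the 10). The smallest unadjusted p among the 10 was 0.329.

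For each gene the most similar other profile was sought among the tested genes, by root-mean-square distance of mean-centred log2 values over the 6 arrays. Here too the values were not scaled to equal variation, so small distances go with profiles that vary little. The mean profile of the 10 averages the rising genes and those without a called change, so it lies between them and matches neither. Nearest to it was Ace, at a distance of 0.0398 and with a rise of 0.92 in round spermatids. The testis isoform of Ace has been linked to the placement of ADAM3 in mouse sperm, but Adam3 itself differed by 0.03. Gstcd, Fhl5, Inpp4b and Cep85l followed at 0.0509 to 0.0611. For single genes the nearest were Slc39a6 for Adam2 (0.0383), Hadha for Adam3 (0.0175), Dkkl1 for Adam5 (0.0126), Cilk1 for Adam18 (0.0193) and Tex14 for Adam32 (0.0075). Among the rising genes they were Cd46 for Adam29 (0.0615), Ccdc187 for Adam24 (0.0575), Samt2b for Adam25 (0.167), Cfap47 for Adam26a (0.116) and the ADAM gene Adam4 for Adam39 (0.133).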

How the data were processed

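Values were deposited by the authors as intensity per transcript cluster on a linear scale, for which the submitters' processing notes name RMA in Affymetrix Expression Console 1.1. The sources used here give neither RMA options nor a genome build. Groups came from the sample titles. Of 35556 clusters, 21789 had 1 gene symbol in the platform annotation, 1621 had several and 12146 were not listed. RefSeq GRCm38.p6 matched 21698 single-gene clusters by gene identifier, and 0 symbols needed an update. Per gene, the cluster of highest mean was kept. Log2 of the intensity was tested with limma 3.58.1 in R 4.3.3 (lmFit, eBayes) where at least 1 array reached log2 6, with Benjamini-Hochberg adjustment over all 17925 genes and a threshold of 0.05. The additive fit left 3 and the fit of 4 group means 2 residual degrees of freedom. All 10 genes passed the filter. The code was tested on simulated data.

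The genes, the lists (other testis, widely expressed and epididymal or lymphoid ADAM genes, maturation factors, cell markers), the promoter motifs and the tests were chosen with earlier results of these data known. Named are all 10 genes, up to 4 of each list with the largest called changes, and the nearest profiles without clone names. Other genes named outside this rule (Adam1a, Adam1b, Adam20, Adam30, Tex101, Tpst2, Clgn, Adam9 and the epididymal or lymphoid genes) were chosen after their values were seen. Promoters were aligned with Biopython 1.88. Alternatives changed the filter, scaling, cluster choice, prior, added constant, replicate block and arrays used. Protein sequences were not used here, so no zinc-binding motif was checked.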

Additional observations from a re-analysis of the deposited data

How the results depend on the processing

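The count of 5 of 10 genes higher and 0 lower in round spermatids over both genotypes held under all alternatives run, each array left out included. Leaving out arrays moved the number of all genes called to between 2786 and 8849 (2786 without the WT, 3577 without the KO round spermatid array), in KO to between 1646 and 3883 and in WT to between 1404 and 5511. With median centring 1 of 10 genes passed as higher in KO instead of 5, although the other 4 still differed by 1.67 (Adam29), 1.58 (Adam24), 2.02 (Adam25) and 2.08 (Adam26a), and Adam29 in KO also missed the threshold without a filter (limma adjusted p = 0.0609). The cause was not tested.

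For KO against WT, 0 of 10 genes passed under every alternative run. The number of all genes called was 43 with the replicate block and 88 with the numbers crossed in pachytene spermatocytes, and 0 to 2 with an array left out. Over both cell types it was 3 with a second quantile normalization, 8 with every cluster tested, 2 with the trended and robust prior, 2 with the replicate block, 1 with log2(value + 16) and 0 to 21 with an array left out. The interaction called 1 gene with the replicate block. The 69 genes at least 2-fold apart in round spermatids were counted without a test. By limma adjusted p under 0.05 in the fit of 4 group means, whose spread comes from the pachytene pairs, 0 genes were called there. The counts use unlike criteria on the same differences. Deviations of same-numbered pachytene arrays correlated at -0.23 across genes, so the titles' numbers are not shown to pair the arrays. The crossed pairing was chosen after seeing the data. Neither pairing called any of the 10 genes for KO against WT.

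Signs turned in values near 0, with a KO pachytene array left out, and for Adam2 with a WT pachytene array left out. Without WT pachytene array 2, KO minus WT in pachytene spermatocytes also turned for Adam24 (-0.10, main 0.07) and Adam39 (-0.12, main 0.01). For Adam26a it was then 0 (main 0.11). For Adam2 the main values were 0.18 for KO minus WT in pachytene spermatocytes and -0.18 for round spermatids minus pachytene in WT. With a second quantile normalization, round spermatids minus pachytene for Adam5 was 0.004 over both genotypes and 0.011 in WT, and KO minus WT in pachytene spermatocytes was 0.013 for Adam3 and 0.027 for Adam32. For Adam5 in WT it was 0.041 with median centring and 0.011 with the replicate block. With an array left out, KO minus WT in pachytene spermatocytes ran from -0.02 to 0.383 for Adam2, -0.068 to 0.033 for Adam3, -0.103 to 0.012 for Adam5, -0.054 to 0.039 for Adam32, -0.81 to 0.382 for Adam29, -0.362 to 0.505 for Adam24, -0.422 to 0.913 for Adam25, -0.574 to 0.79 for Adam26a and -0.555 to 0.583 for Adam39. In WT, round spermatids minus pachytene ran from -0.38 to 0.023 for Adam2, -0.01 to 0.091 for Adam3 and -0.075 to 0.002 for Adam5.

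No scaling moved the median of all genes by more than 0.08. KO minus WT in round spermatids was 0.02 for Adam3 after a second quantile normalization, and with median centring -0.10 for Adam3, -0.10 for Adam18, -0.11 for Adam32 and -0.16 for Adam5. Limits are the single round spermatid array per genotype, the gap within the KO pachytene pair, and the lack of a background measure and of stated separate preparations.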

Other observations

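Among 11 widely expressed ADAM genes, 2 were higher and 2 lower in round spermatids than in pachytene spermatocytes in the additive limma fit (median log2 difference -0.07). Of all genes tested, 17.8% were higher and 17.1% lower, so these shares are near the background. Adam15 rose by 0.99 (limma adjusted p = 0.00105) and Adam22 by 0.63 (limma adjusted p = 0.00299). Adam17, the sheddase that releases tumour necrosis factor, fell by 0.49 (limma adjusted p = 0.0187), and Adam11 fell by 0.48 (limma adjusted p = 0.0170). Adam9, next to Adam32 on chromosome 8, was at -0.27 and did not pass (limma adjusted p = 0.0831). Without the KO round spermatid array 2 were higher and 0 lower, without the WT one 1 and 0, without KO pachytene array 1 it was 3 and 3, and with the replicate block 3 and 0. With either WT pachytene array left out, or with median centring, 2 were higher and 1 lower. Of 3 ADAM genes of the epididymis or lymphoid cells, Adam7 did not reach the filter, and Adam28 and Adamdec1 did not pass, at -0.22 and 0.01.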
